A study of Mus musculus with 57 samples.

Results

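The genes described here are 34 genes of cholesterol and lipid synthesis, sensing and efflux, taken by symbol from a fixed list. All 34 were found among the 50565 genes of one count table and the 53278 genes of the other, and all 34 passed the filters on low counts. RNA had been sequenced from CD11b-positive brain cells, annotated as microglia, of adult wild-type (WT) mice and littermates deficient in P2RY12 (KO), a nucleotide receptor of resting microglia. In the sex experiment there were 4 WT and 5 KO samples from males, and likewise 4 WT and 5 KO samples from females, with no treatment given in the labels. In the LPS experiment, animals received lipopolysaccharide (LPS, a molecule of the outer bacterial membrane that sets off inflammation) into the peritoneum at 1 mg/kg, or carried the label ns, which the labels do not define. The experiment held 8 KO ns, 8 KO LPS, 8 WT ns and 9 WT LPS libraries. Of these, WT LPS 8 and WT LPS 9 were summed to 1 sample because their counts were far closer to each other than those of any other pair within a labelled group. The labels give neither the sex of those animals nor the time after injection, and they do not say how the KO allele was made. All groups are described as adult littermates, and no other allele is named. The labels do not state that each library is a separate animal, so p-values measure the spread between these samples.

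Cells build cholesterol from acetyl-CoA through mevalonate, isoprenoid pyrophosphates, squalene and a series of sterol intermediates. When membranes run low in sterol, SCAP escorts the SREBP transcription factors (encoded by Srebf1 and Srebf2) from the endoplasmic reticulum for cleavage, and the cleaved forms switch on the synthesis genes. INSIG proteins hold SCAP back when sterol is plentiful. Oxysterols, made among others by cholesterol 25-hydroxylase (Ch25h), bind INSIG and also activate the liver X receptors, whose targets include the cholesterol exporters Abca1 and Abcg1. Microglia take up lipid-rich debris in the brain. Sterol synthesis, uptake and export themselves were not measured here, only RNA of the genes.

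Depth, in counts per library times 1e-06, was 15.9 to 168.4 in the LPS experiment (median 24.7) and 58.5 to 318.5 in the sex experiment. Among low counts, 79.0 to 89.2% per library were even numbers in the sex experiment, against 39.7 to 45.6% in the LPS experiment. The cause was not tested, and depth and CPM of the 2 experiments are not directly comparable. The gene length given with the sex counts equalled the full genomic span, introns included, for 100% of genes. P2ry12, the targeted gene, was at 3007 to 5928 CPM in the WT and 309 to 526.4 in the KO samples of the sex experiment (CPM is the count scaled to library size after TMM adjustment). In the LPS experiment it was at 585 to 1243 CPM in KO ns, 84.2 to 154 in KO LPS, 3516 to 5406 in WT ns and 400.3 to 1063 in WT LPS, lower under LPS in both genotypes. In that experiment, 4 WT libraries whose names end in the number 2 went against their treatment label. WT ns 1 and WT ns 5 had the acute-phase gene Saa3 at 1781 and 2491 CPM, and WT LPS 1 and WT LPS 6 had it at 1.59 and 3.21. P2ry12 was at 481 and 927 CPM in the former and at 4461 and 12150 in the latter. The other WT ns and WT LPS libraries had Saa3 at 1.52 to 64.4 and 1418 to 9720 CPM. These 4 libraries are shown apart, so WT ns and WT LPS below mean 6 samples each. A further property bears directly on sterol genes: 6 libraries of the second library set (KO ns 5, KO ns 6, KO LPS 5, WT LPS 7, and the number 2 libraries WT ns 5 and WT LPS 6) were poor in GC-rich genes. Their GC-rich minus GC-poor difference, measured without the 34 genes, was -3.44 to -2.07 on the log2 CPM scale, against -0.51 to 0.42 in the other 26 samples. The ends of that last range were WT ns 7 (-0.51) and WT ns 4 (0.42), which also stood apart from the rest, and both belong to the WT ns group. WT ns 4 was also the library with a depth of 168.4, the next highest being 45.3.

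Promoters of 5 of the genes are shown because SREBP and its partner NF-Y act at such sequences and the genes stand for the enzyme and sensor groups described below. RefSeq promoter windows of the build GRCm38.p6, reaching from 250 bases before to 50 after the transcription start, matched 27 of the 34 genes. Abcg1, Scd1, Scd2, Sqle, Fdft1, Fdps and Stard4 had no entry. The windows were searched on both strands for the sterol regulatory element TCACNCCAC, its shorter form CACNCCAC that lies inside it, and the CCAAT box, to which the factor NF-Y binds. The 150 bases before the start are printed 5′ to 3′ on the gene's strand, with capitals marking CACNCCAC and CCAAT matches, ATTGG being CCAAT on the other strand. Hmgcs1 lies at chr13:119690201-119690350 on the plus strand, Mvk at chr5:114444119-114444268 (plus), Mvd at chr8:122443423-122443572 (minus), Hsd17b7 at chr1:169969206-169969355 (minus) and Insig1 at chr5:28071262-28071411 (plus).
Hmgcs1: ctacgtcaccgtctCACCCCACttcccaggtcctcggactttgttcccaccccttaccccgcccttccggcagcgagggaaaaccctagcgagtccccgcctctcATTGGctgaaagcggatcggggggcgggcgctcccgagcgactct
Mvk: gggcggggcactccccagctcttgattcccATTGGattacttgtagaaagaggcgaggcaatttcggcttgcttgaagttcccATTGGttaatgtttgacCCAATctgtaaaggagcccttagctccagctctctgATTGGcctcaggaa
Mvd: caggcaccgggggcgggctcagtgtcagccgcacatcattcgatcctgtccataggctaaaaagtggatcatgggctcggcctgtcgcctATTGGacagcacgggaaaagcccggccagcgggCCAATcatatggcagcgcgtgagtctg
Hsd17b7: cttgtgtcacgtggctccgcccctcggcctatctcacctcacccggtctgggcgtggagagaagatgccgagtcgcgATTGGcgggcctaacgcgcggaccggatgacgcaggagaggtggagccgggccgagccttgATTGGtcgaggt
Insig1: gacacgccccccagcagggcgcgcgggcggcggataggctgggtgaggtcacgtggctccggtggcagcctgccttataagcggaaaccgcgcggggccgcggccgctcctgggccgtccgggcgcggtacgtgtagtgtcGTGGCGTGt

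Of the 27 genes, 1 held the full element TCACNCCAC, namely Hmgcs1, and 2 held CACNCCAC, namely Hmgcs1 and Insig1. Over all 27025 genes with a promoter entry, 1.4% held the full element and 7.1% the shorter form, so both shares rest on very few of these genes. CCAAT stood in the windows of 21 of the 27 genes (77.8%), against 41.1% of all genes. The Mvk window held 5 CCAAT matches and the Hsd17b7 window 3. These are matches of letters, not measured binding.

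LPS raised a subset of the cholesterol pathway in both genotypes. In KO 15 of the 34 genes passed the test (edgeR quasi-likelihood test, Benjamini-Hochberg adjusted p under 0.05 over 15857 genes), 13 higher and 2 lower. Over all genes tested, 28.3% were called, 13.1% higher and 15.2% lower. In WT 13 of the 34 passed, 11 higher and 2 lower, against 30.3% of all genes, 14.8% higher and 15.5% lower. The median log2 fold change of the 34 genes was 0.48 in KO and 0.44 in WT, against -0.02 and -0.01 over all genes tested. DESeq2 called 18 in KO and 15 in WT, counts given without the share of all genes it called. The 10 genes called in both genotypes were Mvd, Fdps, Pmvk, Hsd17b7, Insig1, Abca1, Soat1, Ch25h and Apob, all higher, and Mttp, lower. Without the 6 libraries poor in GC-rich genes, 25 genes were called in KO (21 higher, 4 lower) and 22 in WT (19 higher, 3 lower), with 55% (27.9% higher, 27.2% lower) and 54.6% (27.9% higher, 26.7% lower) of all genes called. With the number 2 libraries in the groups their labels give, the counts were 12 in KO, with 22.3% of all genes called, and 0 in WT, where 0 of all genes were called. Because the cells were profiled in bulk, fewer cells of a type and less RNA per cell cannot be told apart.

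**Figure D1:**
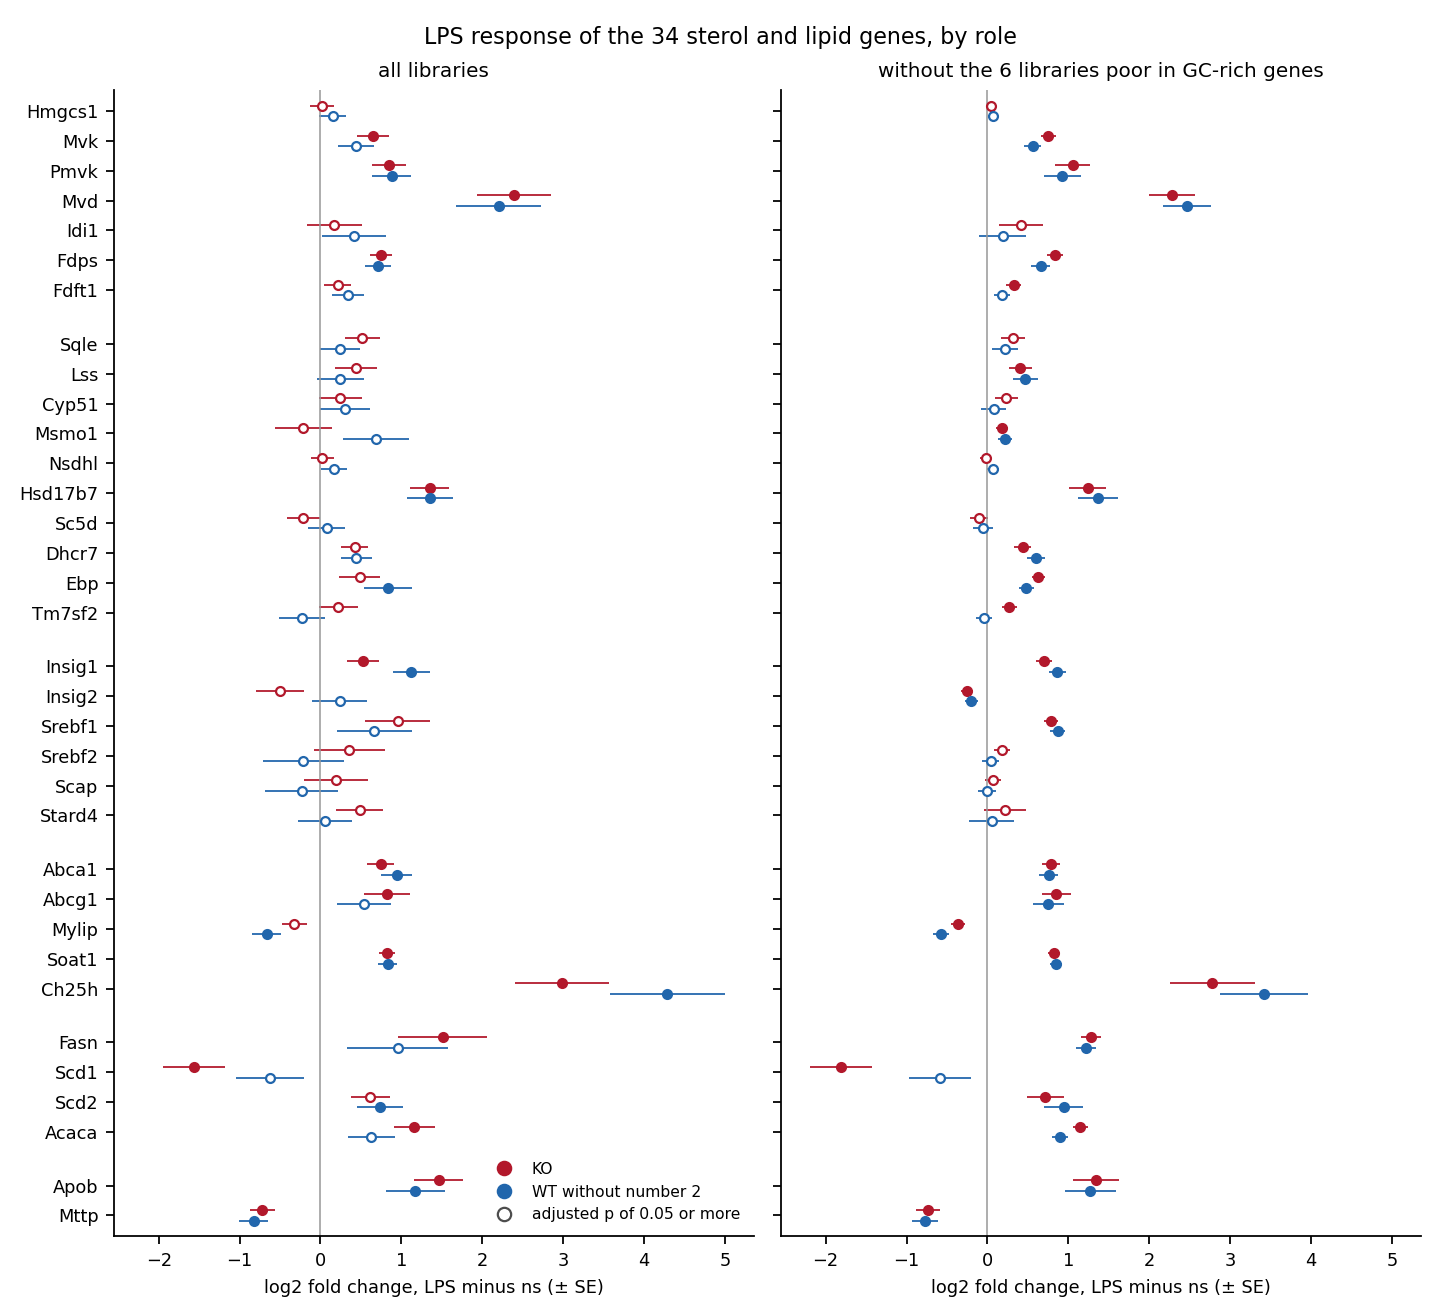
Log2 fold change, LPS minus ns (x axis, bars are SE), of the 34 genes (y axis, grouped by role) in KO (red) and in WT without the number 2 libraries (blue); filled circles have an adjusted p under 0.05. The left panel uses all libraries and the right panel leaves out the 6 libraries poor in GC-rich genes, where 25 and 22 genes are filled and the bars are shorter for Srebf1, Srebf2, Scap and Fasn.

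Among the 7 mevalonate pathway enzymes, 4 rose in KO (Mvd, Fdps, Pmvk, Mvk) and 3 in WT (Mvd, Fdps, Pmvk), and 0 fell in either. The counts per role here and below stand beside 13.1% of all genes called higher in KO and 14.8% in WT. Mvd, which encodes mevalonate diphosphate decarboxylase (chromosome 8, 123160335 to 123170161, minus strand, GRCm39), moved furthest. Its level was 4.02 to 16.0 CPM (median 11.9, n = 8) in KO ns and 3.41 to 99.4 CPM (median 59.1, n = 8) in KO LPS. In WT ns it was 8.30 to 19.5 CPM (median 13.6, n = 6) and in WT LPS 12.9 to 119 CPM (median 52.8, n = 6). Both pairs of groups overlapped only through libraries poor in GC-rich genes: without them KO LPS began at 32.1 and WT LPS at 50.8 CPM, above every ns library. The log2 fold change was 2.39 ± 0.46 (SE, adjusted p = 0.00018) in KO and 2.20 ± 0.52 (adjusted p = 0.0019) in WT. The number 2 libraries were on the side of the other treatment where GC content was even: WT ns 1 had 70.3 CPM and WT LPS 1 had 13.6. WT ns 5 and WT LPS 6, both poor in GC-rich genes, had 13.6 and 5.32 CPM.

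Fdps makes farnesyl pyrophosphate, the branch point towards sterols and prenylated proteins. It was at 4.88 to 8.88 CPM (median 6.32) in KO ns and 9.29 to 14.9 (median 10.6) in KO LPS. In WT it was at 5.45 to 8.60 CPM (median 6.96) and 9.74 to 15.0 (median 10.9). The ns and LPS groups did not overlap in either genotype, and the log2 fold changes were 0.75 ± 0.14 (adjusted p = 8.7e-05, edgeR) in KO and 0.71 ± 0.16 (adjusted p = 0.00086) in WT. Its values in the number 2 libraries were 11.1 and 12.2 CPM in WT ns 1 and WT ns 5, and 6.52 and 7.51 in WT LPS 1 and WT LPS 6, each within the range of the opposite label.

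Pmvk and Mvk encode the kinases that act on phosphomevalonate and mevalonate. Pmvk had 7.70 to 16.7 CPM (median 9.10) in KO ns and 11.8 to 37.3 (median 15.8) in KO LPS, with 1 ns library, KO ns 6, inside the LPS range. Its WT ranges were 7.95 to 10.3 (median 9.21) and 13.3 to 27.6 CPM (median 15.2), without overlap. The change was 0.84 ± 0.21 in KO (adjusted p = 0.0027) and 0.88 ± 0.24 in WT (adjusted p = 0.0061). The number 2 libraries had Pmvk at 14.5 CPM (WT ns 1), 16.9 (WT ns 5), 6.41 (WT LPS 1) and 13.9 (WT LPS 6). Mvk had 3.83 to 6.67 CPM (median 5.51) in KO ns and 2.22 to 11.1 (median 9.37) in KO LPS, the lowest of these being KO LPS 5. In WT ns it had 6.02 to 6.95 (median 6.20) and in WT LPS 6.12 to 9.87 CPM (median 8.86), and the groups overlapped through WT LPS 7. It rose by 0.65 ± 0.20 in KO (adjusted p = 0.013), and the WT change of 0.44 ± 0.23 did not pass (adjusted p = 0.15). Without the 6 GC-poor libraries the WT change of Mvk was 0.56 ± 0.10 (adjusted p = 5.1e-05). Its number 2 values were 8.96, 4.96, 5.99 and 3.99 CPM in WT ns 1, WT ns 5, WT LPS 1 and WT LPS 6.

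The first of these enzymes was not called. Hmgcs1, which makes HMG-CoA and whose promoter held the full element, changed by 0.02 ± 0.15 in KO and 0.15 ± 0.17 in WT. Without the 6 GC-poor libraries those values were 0.05 ± 0.06 and 0.07 ± 0.07 (adjusted p = 0.54 and 0.40). Idi1 and Fdft1, for isopentenyl diphosphate isomerase and squalene synthase, did not pass with all libraries. Without the 6 libraries Fdft1 was called in KO, at 0.33 ± 0.09 (adjusted p = 0.0045), and not in WT, at 0.18 ± 0.10 (adjusted p = 0.13).

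**Figure D2:**
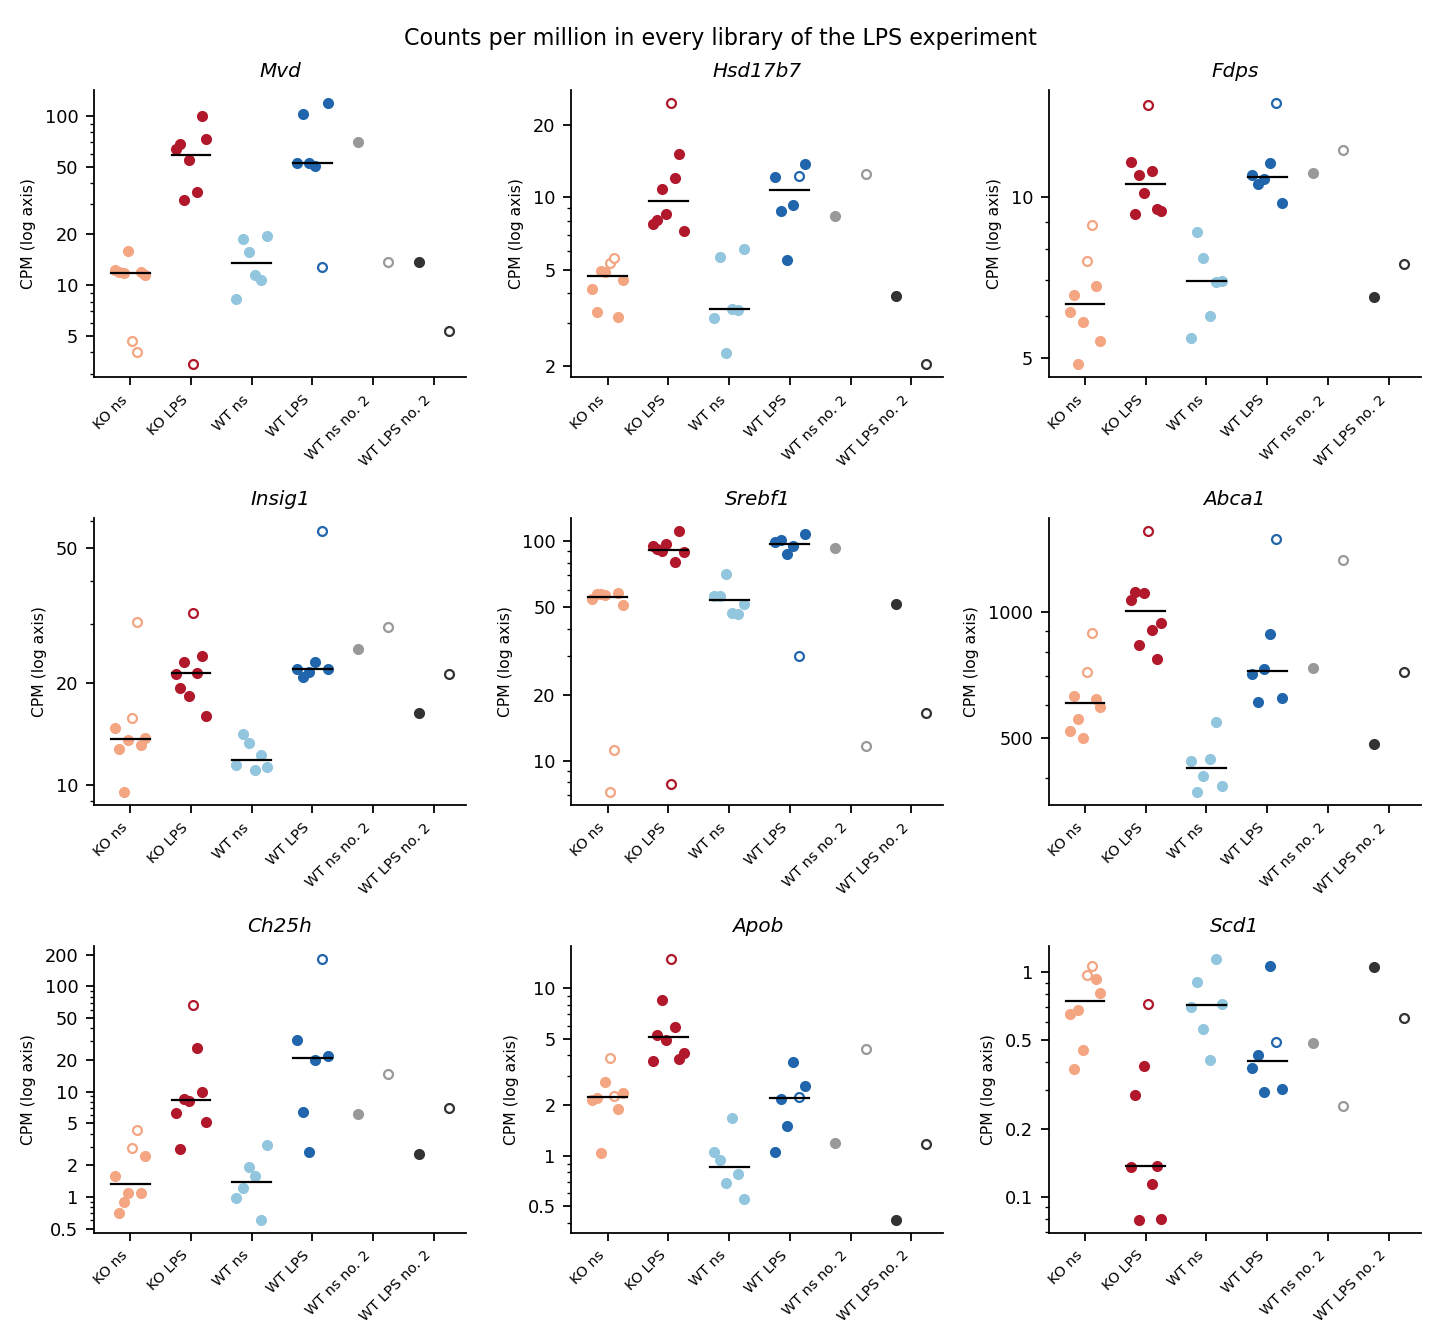
CPM (y axis, log scale) in every library of the LPS experiment for 9 of the genes, by group (x axis), with open circles for the 6 libraries poor in GC-rich genes and black lines for group medians. The Mvd panel shows KO LPS 5 at 3.41 and WT LPS 7 at 12.9 CPM below the other LPS libraries, and WT ns 1 at 70.3 CPM among the LPS values.

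Of the 10 enzymes that turn squalene into cholesterol, 1 rose in KO (Hsd17b7) and 2 in WT (Hsd17b7, Ebp), and 0 fell. With 13.1% and 14.8% of all genes called higher in KO and WT, these counts are no result about the group. Hsd17b7 encodes the 3-keto reductase of the sterol C4 demethylation complex (chromosome 1, 169777104 to 169796913, minus strand, GRCm39). It had 3.20 to 5.62 CPM (median 4.73) in KO ns and 7.25 to 24.6 (median 9.70) in KO LPS, which did not overlap. WT samples had 2.26 to 6.13 (median 3.44) and 5.48 to 13.8 CPM (median 10.7), overlapping through WT LPS 4. Its log2 fold change was 1.35 in both genotypes, with SE 0.24 and adjusted p = 9.0e-05 in KO, and SE 0.28 and adjusted p = 0.00052 in WT. The number 2 libraries had 8.39 and 12.6 CPM under the label ns and 3.90 and 2.04 under the label LPS.

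Ebp, the sterol isomerase that shifts a ring double bond, had 39.5 to 119 CPM (median 45.6) in KO ns and 50.3 to 153 (median 68.5) in KO LPS. In WT ns it had 38.7 to 51.8 CPM (median 43.9) and in WT LPS 49.2 to 184 (median 63.9). The highest value of KO ns, KO LPS and WT LPS was in each case a GC-poor library, and so were 107 CPM in WT ns 5 and 122 in WT LPS 6, against 71.9 in WT ns 1 and 42.2 in WT LPS 1. The change was 0.48 ± 0.25 in KO (adjusted p = 0.17) and 0.83 ± 0.30 in WT (adjusted p = 0.033). Without those 6 libraries it was 0.63 ± 0.08 in KO (adjusted p = 9.8e-07) and 0.48 ± 0.09 in WT (adjusted p = 8.7e-05).

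Sqle, squalene epoxidase, a rate-limiting and tightly regulated step, had 2.66 to 7.99 CPM (median 6.29) in KO ns and 5.65 to 16.3 (median 7.56) in KO LPS. In WT, Sqle had 4.42 to 9.03 (median 6.98) and 6.27 to 10.5 CPM (median 8.18), with wide overlap in both genotypes. Sqle changed by 0.52 ± 0.21 in KO (adjusted p = 0.072) and 0.25 ± 0.25 in WT (adjusted p = 0.49), so it was not called by edgeR; DESeq2 called it in KO (adjusted p = 0.043). Its number 2 values, 6.18 and 10.7 CPM in WT ns 1 and WT ns 5 and 7.28 and 4.46 in WT LPS 1 and WT LPS 6, spanned both groups. Lss, Cyp51, Msmo1, Nsdhl, Sc5d, Dhcr7 and Tm7sf2 were not called by edgeR with all libraries, and DESeq2 called Dhcr7 in both genotypes (adjusted p = 0.024 in KO and 0.030 in WT). Without the GC-poor libraries Dhcr7, Ebp, Hsd17b7, Lss and Msmo1 rose in both genotypes and Tm7sf2 in KO. These added genes moved less than Hsd17b7: Dhcr7, the last reductase, by 0.44 ± 0.10 and 0.60 ± 0.11 in KO and WT, Lss by 0.41 ± 0.14 and 0.47 ± 0.15, and Msmo1 by 0.18 ± 0.08 and 0.22 ± 0.08. Tm7sf2 overlaps Vps51 on the annotation of the files, so reads could be shared.

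Among the 6 genes that sense sterol or control SREBP, Insig1 was called higher in both genotypes and the other 5 in neither by edgeR. That count is also near the share of all genes called higher, 13.1% in KO and 14.8% in WT. DESeq2 did not call Insig1 in KO (adjusted p = 0.054) and called Srebf1 there (adjusted p = 0.040). Insig1 (chromosome 5, 28276410 to 28283660, plus strand, GRCm39) is itself an SREBP target and closes the feedback loop. It had 9.57 to 30.3 CPM (median 13.7) in KO ns and 16.1 to 32.1 (median 21.4) in KO LPS, and the highest ns value was the GC-poor library KO ns 6. In WT it had 11.1 to 14.2 (median 11.9) against 20.9 to 56.3 CPM (median 22.01), without overlap. The change was 0.53 ± 0.19 in KO (adjusted p = 0.042) and 1.12 ± 0.23 in WT (adjusted p = 0.00038), and 0.70 ± 0.10 and 0.87 ± 0.11 without the 6 GC-poor libraries. Insig1 had 25.3 and 29.4 CPM in the number 2 libraries labelled ns and 16.3 and 21.3 in those labelled LPS.

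Srebf1, which encodes SREBP-1 and is also a liver X receptor target, was read at low levels in the GC-poor libraries. It had 7.25 to 58.1 CPM (median 55.9) in KO ns, 7.85 to 111.5 (median 91.1) in KO LPS, 46.7 to 71.3 (median 54.1) in WT ns and 30.04 to 108.5 (median 97.2) in WT LPS. With all libraries its change of 0.95 ± 0.40 in KO and 0.67 ± 0.46 in WT was not called by edgeR (adjusted p = 0.077 and 0.29), while DESeq2 called Srebf1 in KO (0.96, adjusted p = 0.040) and not in WT (adjusted p = 0.23). Without the 6 libraries KO ns spanned 51.5 to 58.1 and KO LPS 80.8 to 111.5 CPM, WT LPS began at 87.2, and the groups separated. The change was then 0.78 ± 0.08 in KO (adjusted p = 4.4e-08) and 0.87 ± 0.09 in WT (adjusted p = 2.8e-08). Among the number 2 libraries, WT ns 1 had 93.1 and WT LPS 1 had 52.0 CPM, and the GC-poor WT ns 5 and WT LPS 6 had 11.7 and 16.6. Srebf1 overlaps Rai1 on the annotation of the files, so reads could be shared. Insig2, the second INSIG gene, was called lower in both genotypes without the 6 libraries, at -0.25 ± 0.07 and -0.20 ± 0.08. Srebf2, Scap and Stard4 were called in neither setting, with Srebf2 at 0.18 ± 0.09 in KO and 0.04 ± 0.10 in WT without the 6 libraries.

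**Figure D3:**
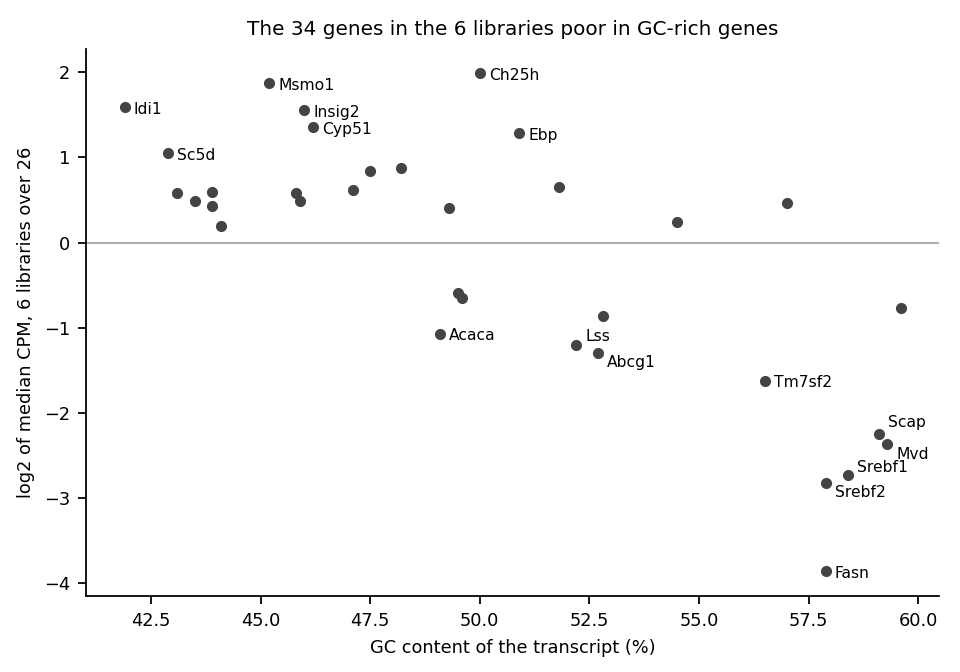
For each of the 34 genes, the log2 ratio of its median CPM in the 6 libraries poor in GC-rich genes to that in the other 26 samples (y axis) against the GC content of its transcript in percent (x axis). Fasn, Srebf2, Srebf1, Mvd and Scap, all at 57.9% GC or more, lie between -3.87 and -2.25, and Msmo1, Idi1, Insig2 and Cyp51, all at 46.2% or less, lie between 1.35 and 1.88; Mvk at 59.6% lies at -0.76 and Pmvk at 57.0% at 0.47.

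Over the 34 genes this ratio fell with transcript GC content (Pearson r = -0.75 across genes, which share the same libraries and are not replicates). Fasn had 3.42 to 9.50 CPM in the 6 libraries and 35.2 to 127 in the other 26. Not every gene followed it: Mvk, the highest in GC at 59.6%, had a ratio of -0.76, and Pmvk (57.0%), Fdps (54.5%) and Ebp (50.9%) had 0.47, 0.24 and 1.28. Ch25h was also high in these libraries, with a ratio of 1.99.

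Cholesterol efflux, storage and oxysterol genes rose with LPS. Of these 5 genes, Abca1, Abcg1, Soat1 and Ch25h were called higher in KO, and Abca1, Soat1 and Ch25h higher and Mylip lower in WT. Soat1, which esterifies cholesterol for storage in droplets, had the lowest adjusted p of the 34 genes. It had 139 to 168 CPM (median 146) in KO ns and 214 to 335 (median 264) in KO LPS. In WT it had 112 to 143.5 (median 139) and 218 to 255 CPM (median 239), and neither pair overlapped. The change was 0.82 ± 0.10 in KO (adjusted p = 2.4e-07) and 0.83 ± 0.11 in WT (adjusted p = 2.4e-06). In the number 2 libraries Soat1 again followed the opposite label, with 273 and 364 CPM in those labelled ns and 146 and 131 in those labelled LPS.

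Abca1, the exporter that loads cholesterol onto apolipoproteins (chromosome 4, 53030789 to 53159988, minus strand, GRCm39), had 498 to 888 CPM (median 604) in KO ns and 769 to 1559 (median 1002) in KO LPS. WT samples had 371 to 545 (median 423) and 609.5 to 1491 CPM (median 720), and the WT groups did not overlap. It rose by 0.74 ± 0.17 in KO (adjusted p = 0.0011) and 0.94 ± 0.19 in WT (adjusted p = 0.00047). The number 2 libraries had 733 and 1326 CPM (WT ns 1, WT ns 5) and 483 and 716 (WT LPS 1, WT LPS 6). Abcg1, the exporter that loads lipoprotein particles, had 73.7 to 172 CPM (median 152) in KO ns and 47.5 to 361 (median 289) in KO LPS. In WT it had 119.5 to 215 (median 133) and 64.0 to 301.5 CPM (median 220), the lowest LPS values being the GC-poor libraries KO LPS 5 and WT LPS 7. Its change was 0.83 ± 0.29 in KO (adjusted p = 0.029) and 0.54 ± 0.33 in WT (adjusted p = 0.22), and 0.85 ± 0.18 and 0.75 ± 0.19 without the 6 libraries, both called. Abcg1 had 265 CPM in WT ns 1 and 136 in WT LPS 1, and 146 and 60.8 in the GC-poor WT ns 5 and WT LPS 6.

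Ch25h had the largest fold change and the widest spread. The gene (chromosome 19, 34451183 to 34452548, minus strand, GRCm39) makes 25-hydroxycholesterol and is known as interferon- and LPS-inducible in macrophages. It had 0.697 to 4.33 CPM (median 1.34) in KO ns and 2.86 to 66.7 (median 8.34) in KO LPS. In WT ns it had 0.609 to 3.13 CPM (median 1.39) and in WT LPS 2.66 to 184 (median 20.9). The groups overlapped at their edges, and both highest values were GC-poor libraries, KO LPS 5 and WT LPS 7. The change was 2.98 ± 0.58 in KO (adjusted p = 0.00023) and 4.29 ± 0.71 in WT (adjusted p = 3.3e-05). Without the 6 libraries it was 2.78 ± 0.53 and 3.42 ± 0.55. Number 2 libraries labelled ns had Ch25h at 6.09 and 14.8 CPM and those labelled LPS at 2.54 and 7.04.

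Mylip, also named Idol, marks lipoprotein receptors for degradation and is a liver X receptor target, but it moved opposite to Abca1. It had 149 to 412 CPM (median 367) in KO ns and 183 to 319 (median 279) in KO LPS, and 331 to 538 (median 381) in WT ns and 193.5 to 299 (median 269) in WT LPS. The WT groups did not overlap. The change was -0.67 ± 0.18 in WT (adjusted p = 0.0057) and -0.33 ± 0.16 in KO (adjusted p = 0.13), and without the 6 libraries it was called in both, at -0.36 ± 0.09 in KO and -0.58 ± 0.10 in WT. Its number 2 values were 270 and 232 CPM under the label ns and 459 and 222 under the label LPS.

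The 4 fatty acid genes split. Acaca, Fasn and Scd2 were higher with LPS and Scd1 lower, with Acaca, Fasn and Scd1 called in KO and Scd2 in WT. Acaca encodes acetyl-CoA carboxylase, the committed step of fatty acid synthesis. It had 3.64 to 13.8 CPM (median 11.3) in KO ns and 12.4 to 30.6 (median 24.4) in KO LPS, and 10.0 to 13.7 (median 12.7) in WT ns and 4.50 to 23.8 (median 22.4) in WT LPS. The change was 1.16 ± 0.25 in KO (adjusted p = 0.00071) and 0.63 ± 0.29 in WT (adjusted p = 0.098, and 0.0498 by DESeq2). Leaving out the 6 libraries gave 1.15 ± 0.09 and 0.89 ± 0.10, both called, with no overlap between ns and LPS. In number 2 libraries Acaca had 20.7 and 22.6 CPM under ns and 11.2 and 4.93 under LPS. The gene overlaps Tada2a on the annotation of the files, so reads could be shared. Fasn, fatty acid synthase, changed by 1.51 ± 0.55 in KO (adjusted p = 0.038) and 0.95 ± 0.62 in WT, and by 1.28 ± 0.12 and 1.22 ± 0.13 without the 6 libraries. Scd2 changed by 0.62 ± 0.24 in KO (adjusted p = 0.057, and 0.037 by DESeq2) and 0.73 ± 0.28 in WT (adjusted p = 0.048).

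Scd1, a stearoyl-CoA desaturase that makes monounsaturated fatty acids, was near the floor of detection in this experiment. It had 0.372 to 1.06 CPM (median 0.747) in KO ns and 0.0795 to 0.725 (median 0.137) in KO LPS. In WT it had 0.407 to 1.15 (median 0.713) and 0.295 to 1.07 CPM (median 0.402), and both pairs overlapped. It fell in KO, at -1.57 ± 0.38 (adjusted p = 0.0024), and the WT value of -0.63 ± 0.42 was not called (adjusted p = 0.27). The interaction of genotype and LPS for Scd1 was not called either (-0.94 ± 0.57, adjusted p = 0.754). The number 2 libraries had 0.486 and 0.255 CPM under ns and 1.06 and 0.626 under LPS.

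Both genes of lipoprotein assembly were called in both genotypes, in opposite directions. Apob encodes the structural protein of very-low-density and low-density lipoproteins (chromosome 12, 8027629 to 8066839, plus strand, GRCm39), and Mttp the microsomal transfer protein that loads it with lipid (chromosome 3, 137795616 to 137849179, minus strand). Apob had 1.04 to 3.86 CPM (median 2.25) in KO ns and 3.68 to 15.1 (median 5.11) in KO LPS, against 0.551 to 1.68 (median 0.864) in WT ns and 1.05 to 3.63 (median 2.23) in WT LPS. Its KO groups overlapped only through KO ns 5, and the WT groups overlapped. LPS raised Apob by 1.46 ± 0.30 in KO (adjusted p = 0.00047) and 1.17 ± 0.36 in WT (adjusted p = 0.014). Mttp had 12.0 to 20.8 CPM (median 15.5) in KO ns and 7.36 to 15.3 (median 9.10) in KO LPS, against 7.59 to 15.2 (median 11.4) in WT ns and 5.31 to 7.50 (median 6.37) in WT LPS. Its WT groups did not overlap, and KO LPS 5 lay within the KO ns range. Mttp changed by -0.72 ± 0.16 in KO (adjusted p = 0.00073) and -0.82 ± 0.18 in WT (adjusted p = 0.00088). The number 2 libraries had Apob at 1.19 and 4.34 CPM and Mttp at 7.90 and 10.4 under the label ns, and Apob at 0.417 and 1.17 and Mttp at 6.94 and 7.59 under the label LPS.

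Loss of P2RY12 itself called none of the 34 genes by edgeR. Under ns the count was 0 against 0.0883% of all genes (3 at an unadjusted p under 0.05, and 1, Apob, by DESeq2), and under LPS 0 against 0.0946%, 0.0252% higher and 0.0694% lower (4 at an unadjusted p under 0.05, and 1, Apob, by DESeq2). In the sex experiment the count was 0 for the mean of both sexes, against 0.432% of 31709 genes (3 at an unadjusted p under 0.05, and 1, Mttp, by DESeq2). It was 0 in males (0.00946% of all genes) and 0 in females (0.164%), with 4 genes at an unadjusted p under 0.05 in each and 0 by DESeq2. The counts at an unadjusted p and by DESeq2 are given without the share of all genes, so they are not results about these genes. Median log2 fold changes of the 34 genes lay between -0.06 and 0.07 in these 5 comparisons.

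Apob and Mttp had the lowest adjusted p values. Under LPS, Apob was higher in every KO library (3.68 to 15.1 CPM) than in every WT library (1.05 to 3.63), a difference of 1.58 ± 0.34 (adjusted p = 0.066). It was called with WT LPS 8 and WT LPS 9 kept as 2 samples (adjusted p = 0.030), with the number 2 libraries as labelled (0.044, where 0.0189% of all genes were called higher) and by DESeq2 (0.0018). The first of these settings counts a near-identical pair as 2 samples. The second adds WT LPS 1 and WT LPS 6 to WT LPS, with Apob at 0.417 and 1.17 CPM and Saa3 as low as under ns. WT ns 5, with Saa3 as high as under LPS, had Apob at 4.34 CPM, inside the KO LPS range. Over all settings tried the adjusted p ran from 0.0018 to 1, the highest in the second library set by itself. Under ns the groups overlapped, and the difference was 1.29 ± 0.34 (adjusted p = 0.27). Mttp differed by 0.57 ± 0.17 under LPS (adjusted p = 0.42) and 0.46 ± 0.17 under ns (adjusted p = 0.45). Abca1 differed by 0.53 ± 0.18 under ns (adjusted p = 0.43).

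**Figure D4:**
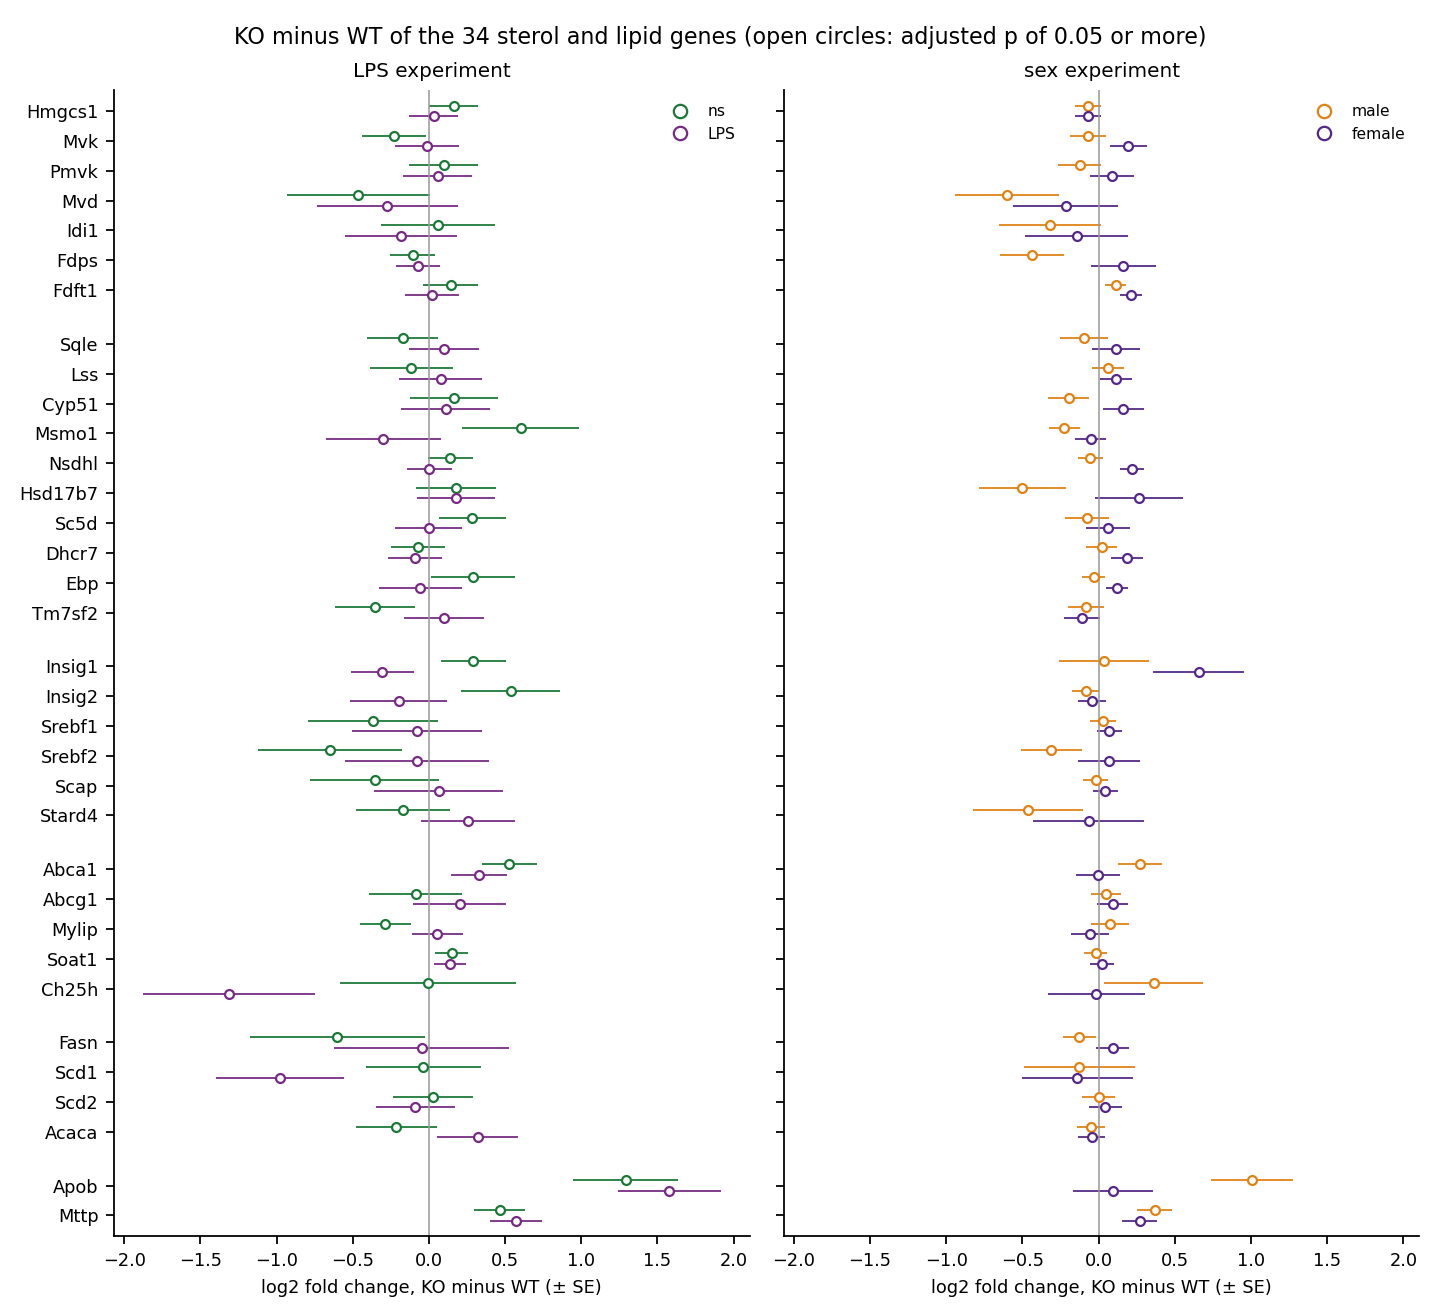
Log2 fold change, KO minus WT (x axis, bars are SE), of the 34 genes (y axis, by role) under ns and LPS (left) and in males and females (right). All circles are open, so no gene has an adjusted p under 0.05; Apob stands at 1.29 and 1.58 on the left, and at 1.01 in males and 0.10 in females on the right.

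The sex experiment holds other samples for the same genes. Apob was at 2.59, 1.71, 1.93 and 1.60 CPM in the 4 male WT samples and at 2.72, 3.89, 4.73, 3.85 and 4.43 in the 5 male KO samples, which did not overlap. In females it was at 2.94, 2.68, 2.22 and 4.51 CPM in WT and 2.46, 2.05, 2.89, 3.69 and 5.42 in KO, which overlapped throughout. The differences were 1.01 ± 0.27 in males and 0.10 ± 0.26 in females, with adjusted p values of 0.67 and 1, and the female value turned to -0.15 without female KO 5 and to -0.03 without female WT 3. The test of the difference between the sexes was not called (-0.91 ± 0.37, adjusted p = 0.9991).

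Mttp was at 16.1, 14.4, 13.4 and 13.7 CPM in male WT and 16.6, 18.3, 16.5, 19.5 and 22.1 in male KO, without overlap. In female WT it was at 14.3, 11.6, 14.1 and 17.3 CPM and in female KO at 16.97, 14.8, 16.95, 17.7 and 19.9, with overlap. The mean difference over the sexes was 0.32 ± 0.08 (adjusted p = 0.12), higher in KO in both sexes, and DESeq2 called it (adjusted p = 0.042).

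Insig1 was at 18.2, 14.7, 16.0 and 41.1 CPM in male WT and 22.97, 20.1, 22.4, 17.4 and 32.4 in male KO. It was at 20.7, 22.7, 25.97 and 27.4 CPM in female WT and 23.2, 32.5, 37.7, 49.8 and 47.4 in female KO. The female difference of 0.66 ± 0.30 had an adjusted p of 0.93, and female KO 1 lay inside the WT range. Abca1 was at 830, 682, 584 and 425 CPM in male WT, 873, 786, 695, 749 and 709 in male KO, 641, 541, 770 and 670 in female WT, and 688, 704, 714, 572 and 592 in female KO, so all groups overlapped. Ch25h stayed low, at 0.396 to 0.655 CPM in male WT, 0.496 to 0.809 in male KO, 0.542 to 1.42 in female WT and 0.589 to 1.70 in female KO. Srebf1 was at 24.9 to 28.4, 25.9 to 29.8, 22.7 to 30.1 and 25.6 to 29.8 CPM in these groups in turn, and Sqle at 8.30 to 12.0, 8.79 to 11.8, 8.48 to 10.6 and 7.44 to 14.3.

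**Figure D5:**
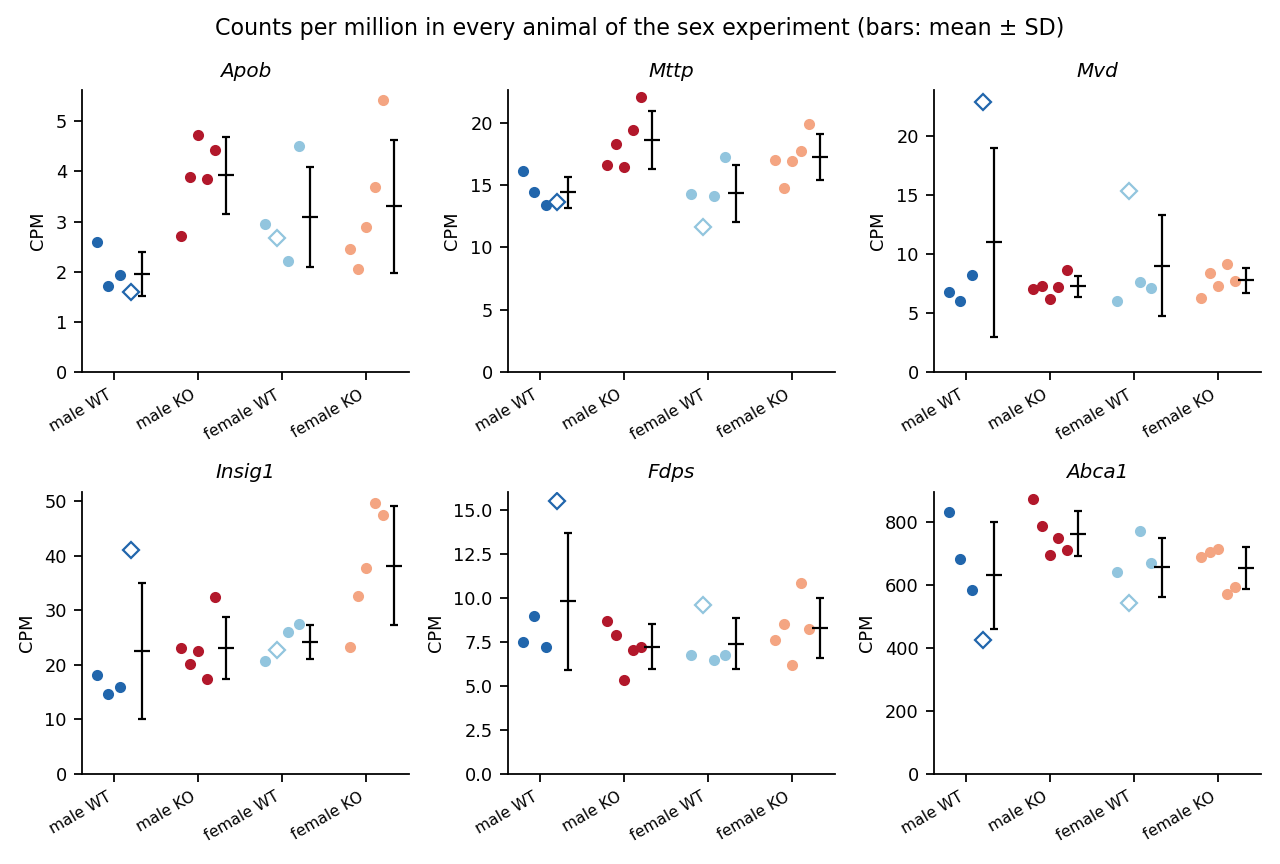
CPM (y axis) of 6 genes in every sample of the sex experiment by group (x axis), with mean ± SD as bars and open diamonds for female WT 2 and male WT 5, the samples with the highest neutrophil marker sums. Mvd reads 15.3 and 22.9 CPM in those samples and 5.99 to 9.09 in the other samples; Apob and Mttp show male KO above male WT.

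Single WT samples set much of the spread of Mvd here, which did not hold for all synthesis genes. Sqle and Cyp51, for example, were highest in female KO 4 (14.3 and 21.9 CPM). Mvd was at 6.80, 5.99, 8.22 and 22.9 CPM in male WT and 7.00, 7.26, 6.16, 7.20 and 8.62 in male KO. It was at 5.99, 15.3, 7.59 and 7.12 CPM in female WT and 6.29, 8.35, 7.30, 9.09 and 7.69 in female KO. The high samples, male WT 5 and female WT 2, also had summed CPM of 8 neutrophil markers of 48370 and 28800, against 728 at the lowest sample and 5437 at the highest KO sample, and their part in the result was not tested. Without both samples, 0 of the 34 genes were called in all 4 comparisons of that experiment. These samples were also the highest of their own groups for Fdps (15.5 and 9.58 CPM) and Hsd17b7 (10.5 and 5.26 CPM), although female KO 4 had 10.8 and 6.71 CPM. The remaining called genes ranged over all 18 samples from 91.6 to 121 CPM (Soat1), 128 to 192 (Abcg1), 293 to 501 (Mylip), 28.8 to 37.6 (Ebp), 15.3 to 21.4 (Acaca), 7.69 to 14.0 (Pmvk), 3.82 to 5.62 (Mvk) and 1.66 to 7.61 (Scd1). Fdft1 stood at 50.6 to 70.7 CPM in this experiment and overlaps the abundant gene Ctsb, so reads could be shared. The genotype effect differed between the sexes for 0 of the 34 genes by edgeR (2 at an unadjusted p under 0.05, given without the share of all genes, and 0 by DESeq2). The LPS effect differed between the genotypes for 0 as well (0 at an unadjusted p under 0.05, and 0 by DESeq2). In both tests 0% of all genes were called (0.00628% for LPS by genotype without the 6 GC-poor libraries, with 0 of the 34), so a gene called in 1 genotype is not shown to differ between them.

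Of 56 further genes of sterol and fatty acid handling, 53 were tested in the LPS experiment. In KO 11 rose and 4 fell with LPS, and in WT 8 rose and 4 fell. These 15 and 12 genes of 53 stand beside 28.3% and 30.3% of all genes called, so the list as a whole was called no more often than all genes. Plin2, which coats lipid droplets, rose by 1.78 ± 0.23 in KO (adjusted p = 6.1e-07) and 1.95 ± 0.26 in WT (adjusted p = 1.8e-06), from 29.8 to 85.4 CPM in KO ns and 30.8 to 53.5 in WT ns to 77.5 to 280 and 92.4 to 279 under LPS. Nr1h3, the liver X receptor alpha gene, rose by 1.69 ± 0.36 and 1.88 ± 0.41 in KO and WT, the apolipoprotein gene Apoc1 by 1.76 ± 0.42 and 1.34 ± 0.47, and the sterol-regulated Tmem97 by 0.93 ± 0.26 and 1.40 ± 0.30. Lipoprotein lipase (Lpl, 0.97 ± 0.32) and the receptor Scarb1 (0.86 ± 0.32) were called in KO. The elongases Elovl1 and Elovl5 were called in both genotypes, at 0.74 ± 0.15 and 0.70 ± 0.15 in KO and 1.15 ± 0.18 and 0.97 ± 0.18 in WT. The fatty acid transporter Cd36 changed by -2.12 ± 0.34 and -1.99 ± 0.39 and the sterol 27-hydroxylase Cyp27a1 by -0.85 ± 0.23 and -1.36 ± 0.27 in KO and WT. Osbpl8 was lower in both at -0.54 (SE 0.15 and 0.18), Abca5 in KO (-1.0039 ± 0.2846) and Dgat1 in WT (-0.79 ± 0.30).

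Between the genotypes 1 of the 53 genes was called. Rxrg, a retinoid X receptor gene whose family partners the liver X receptors, was higher in KO by 2.14 ± 0.32 under ns (adjusted p = 0.00069) and 1.89 ± 0.32 under LPS (adjusted p = 0.0049). It had 3.26 to 7.49 CPM in KO ns against 0.734 to 1.58 in WT ns, without overlap, and 4.65 to 14.7 in KO LPS against 0.911 to 4.89 in WT LPS, where WT LPS 5 reached into the KO range. In the sex experiment 0 of the 56 genes were called by edgeR in the mean of both sexes (10 at an unadjusted p under 0.05, and 3 by DESeq2). The counts in brackets are given without the share of all genes, so they are not results about these genes.

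Some markers of microglia and other cells were called with LPS, beside 28.3% of all genes in KO and 30.3% in WT. The summed CPM of 10 microglia markers was 31720 to 46530 in KO ns and 21280 to 27200 in KO LPS, and 21620 to 37320 in WT ns and 16930 to 25620 in WT LPS, with 1 marker called higher and 5 lower in each genotype. Sums of 8 neutrophil markers were 295 to 10100 in KO ns, 1012 to 4442 in KO LPS, 330 to 17310 in WT ns and 1709 to 13480 in WT LPS, with 0 called in KO and 1 lower in WT. The highest sums were in KO ns 6, KO LPS 5, WT ns 3 and WT LPS 7, all GC-poor libraries except WT ns 3. Border macrophage markers (228 to 686, 149 to 465.9, 310 to 918 and 172 to 526.1 CPM, 6 genes) had 2 called lower in each genotype. Endothelial markers (61.8 to 95.4, 23.5 to 62.6, 48.7 to 59.6 and 15.1 to 37.0 CPM in that order, 5 genes, 4 tested) had 1 called lower in KO and 2 in WT. Of 6 monocyte markers 1 was called lower in each genotype, of 6 tested oligodendrocyte markers 2 were lower in KO and 1 in WT, and of 6 astrocyte markers 2 were higher and 1 lower in KO and 1 higher in WT. Of 4 tested neuron markers 0 were called. Mog, Cldn11, Gfap, Stmn2, Cldn5 and Slco1a4 were at 0 in 1 to 3 of the 32 samples. The part of these markers in the lipid gene results was not tested.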

How the data were processed

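The authors deposited counts per gene, 1 table per experiment with 1 column per library. The submitters' processing notes name FastQC, STAR 2.6.1, featureCounts, Subread, DESeq2 and the build GRCm39, with no role. A further 6 repeat libraries named in the labels had no column and were not used here. Depth per library is given with the results.

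The counts were tested with edgeR 4.0.16 (R 4.3.3, limma 3.58.1): genes kept by filterByExpr on the labelled groups, TMM scaling, robust quasi-likelihood tests, and Benjamini-Hochberg adjustment over all genes tested, called at an adjusted p under 0.05. DESeq2 1.42.0 was the alternative. SE is the absolute log2 fold change divided by the square root of F. WT LPS 8 and WT LPS 9 were summed: their counts differed with a chi-square per degree of freedom of 1.86, against 8.32 or more for all other pairs within a labelled group. Pairs across groups were not compared. Transcript GC content came from GENCODE transcripts of GRCm38. The fits were tested on simulated data. The genes and lists were chosen with earlier results of these data known. Values in every sample are given for up to 16 of the 34 genes called in any comparison, by lowest adjusted p, and always for Insig1, Srebf1, Sqle, Abca1, Ch25h and Apob. Other pathway genes are named where called, up to 6 per comparison and direction by size of change. Alternatives were other scaling, filters, library sets, sample sets and blocks. Leaving out the 6 GC-poor libraries, WT ns 4, or female WT 2 with male WT 5 was chosen after seeing the data.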

Additional observations from a re-analysis of the deposited data

Results flagged for a closer look

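Samples that stood far from the rest of their group were found for 35 of 144 groups of values. The genes share the same libraries, so these groups of values are not independent and no chance rate is set beside them. KO LPS 5 held 11 of the 35, WT LPS 7 held 8 and KO ns 6 held 6. The values are CPM, and no cause was tested. KO LPS 5, a GC-poor library, was the highest of its group for Ch25h (66.7), Fdps (14.9), Hsd17b7 (24.6), Abca1 (1559), Apob (15.1), Scd1 (0.725), Ebp (153) and Sqle (16.3), and the lowest for Mylip (183), Mvk (2.22) and Srebf1 (7.85). WT LPS 7, also GC-poor, was the highest for Ch25h (184), Fdps (14.98), Insig1 (56.3), Abca1 (1491) and Ebp (184), and the lowest for Acaca (4.50), Mvk (6.12) and Srebf1 (30.04). KO ns 6, GC-poor too, was the highest for Insig1 (30.3), Pmvk (16.7) and Ebp (119) and the lowest for Acaca (3.64), Mylip (149) and Sqle (2.66). KO LPS 5, WT LPS 7 and KO ns 6 also had the highest neutrophil marker sums of their groups (4442, 13480 and 10100 CPM). In WT ns the highest sum was in WT ns 3 (17310 CPM), which was not GC-poor.

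Male WT 5, which had the highest neutrophil marker sum of the sex experiment, was the highest male WT sample for Soat1 (121), Mvd (22.9) and Insig1 (41.1). Female WT 2 was the highest female WT sample for Fdps (9.58), female WT 1 the highest for Scd1 (7.61), and female KO 1 the lowest female KO sample for Soat1 (91.6). Pmvk was highest in KO LPS 7 (37.3) and in the summed WT LPS 8 and 9 (27.6), Scd1 in WT LPS 5 (1.07) and Abcg1 in WT ns 4 (215), each within its own group.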

How the results depend on the processing

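Of 813 alternative values for 48 single results, 745 kept direction and side of the threshold, 58 lost the call, 7 gained one and 2 changed sign; the remaining 1 is the number of promoters with the sterol element, 2 with its shorter form. The sign changes were those of Apob, KO minus WT in females, to -0.15 without female KO 5 and -0.03 without female WT 3; leaving out 1 sample gave -0.15 to 0.33. Without the 6 GC-poor libraries LPS called 25 of the 34 genes in KO and 22 in WT, and 24 and 25 of the 53 further pathway genes, with 55% and 54.6% of all genes called. With the number 2 libraries as labelled LPS called 0 of both lists in WT; leaving out the GC-poor libraries as well gave 23 and 24 in KO. The first library set gave 23 of the 34 genes in KO and 22 pathway genes in WT. Its counts for the 34 genes in WT and for pathway genes in KO are not given, so the genotypes cannot be compared there. The second set, which holds all 6 GC-poor libraries, gave 3 and 1 of the 34 and 2 and 2 pathway genes. Shares of all genes called are not given for the library sets, DESeq2, the replicate block, or the labelled groups without GC-poor libraries. The counts under those settings are therefore not results about these genes. For KO minus WT, DESeq2 called 1 of the 34 genes under ns, under LPS and in the mean of the sexes, and 1, 1 and 3 pathway genes in males, females and their mean. Keeping WT LPS 8 and WT LPS 9 as 2 samples, or the number 2 libraries as labelled, each called 1 of the 34 under LPS. A mean of at least 5 CPM called 0 pathway genes under ns and under LPS and 2 in the mean of the sexes. That filter leaves genes of lower mean CPM untested, so its counts of 0 do not show that a gene failed the test. The second set called 0 under both, and fitting only the groups compared called 0 under LPS. Leaving out 1 sample of the sex experiment gave 0 to 1 pathway genes in the mean of the sexes, 1 without female KO 5 or male WT 1. The cause was not tested.

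Shared replicate numbers did not pair the samples uniformly, since correlations of deviations between same-numbered samples ran from negative to positive. They were -0.478 to 0.354 (mean 0.007) in the sex experiment, where samples of unlike number averaged -0.001. In the LPS experiment they were -0.549 to 0.717 (mean 0.09), and samples of unlike number averaged -0.009. The best match had the same number for 4 of 18 and 8 of 30 samples. Whether these shares exceed those of unpaired samples was not tested. With the replicate block, 1 of the 34 genes was called in KO minus WT under LPS (Apob) and 1 in the mean of the sexes (Mttp), 1 pathway gene in males, in females and in their mean, and 19 and 14 of the 34 genes for LPS in KO and WT. The block was fitted without summing the near-identical pair, since their sum has 2 numbers. Scd1, Idi1, Apob and Ch25h were at medians of 0.747, 1.476, 2.25 and 1.34 CPM in KO ns, so few counts stand behind their values.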
